A study of Mus musculus with 24 samples.

Results

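Hearts that lost the immunophilin gene Fkbp1a in cardiomyocytes were set against hearts that carried the same Cre driver and no floxed allele, across all genes. The comparison takes every library labelled FKl/l MHC+ and every library labelled MHC CRE Only, 6 against 6, which are 12 of the 24 libraries of the series. RNA of the whole heart was sequenced in all of them. In FKl/l MHC+, called deletion hearts below, Fkbp1a carries floxed alleles and Cre is expressed under the α-myosin heavy chain promoter, which the study's design gives as active from embryonic day 9. MHC CRE Only, called Cre-only hearts below, carries that driver without the floxed alleles, so Cre is common to both groups and the floxed gene is the labelled difference. Another group, FKl/l, has the floxed alleles and no Cre. It also has 6 libraries, and its values are given beside some results. The last group, FKl/l MCK+, has 6 libraries with the floxed alleles and another Cre driver, given as active from embryonic day 13. Its libraries entered the shared fit, and its levels are not described here. Libraries are named by the replicate number in their titles. Its first digit was taken as the batch, which the titles do not spell out. By that reading each group has 3 libraries in each of 2 batches. Age, sex and strain, the part of Fkbp1a that Cre removes, and whether each library came from its own animal are not stated in what was used here. The p-values therefore measure the spread between libraries. Cardiomyocytes share the whole heart with vessel, connective tissue and immune cells, so fewer cells of a type and less RNA per cell cannot be told apart.

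FKBP12, the product of Fkbp1a, is a small cytosolic protein that catalyses the isomerisation of proline bonds. The drugs FK506 and rapamycin bind it, and the complexes they form block calcineurin and mTOR complex 1. Without drug it associates with ryanodine receptors, the calcium release channels of the sarcoplasmic reticulum, and with type I receptors of the TGF-beta family, which it keeps in the inactive state. Its close relative FKBP12.6, the product of Fkbp1b, also binds the cardiac ryanodine receptor.

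The libraries held 32636319 to 38968458 counts in genes. Levels are given in CPM, counts relative to library sizes that were scaled by the trimmed mean of M values. Cardiomyocyte transcripts were abundant in all 12 libraries, with Myh6 at 15267 to 20366 CPM, Tnnt2 at 3757 to 5567 and Tnni3 at 3744 to 5804. Fkbp1a (chromosome 2, 151542483 to 151561692, plus strand of GRCm38) had a lowest, median and highest level of 43.5, 56.1 and 75.7 CPM in deletion hearts and 81.8, 129 and 138 CPM in Cre-only hearts. The groups did not overlap, but the library labelled MHC CRE Only 1-3 was lowest of its group by far and stood close to the highest deletion library. In this gene that goes against its label, but its levels of Pygb and Slc52a3, given below, lay above all libraries of both floxed groups. The log2 fold change of Fkbp1a was -1.06 (SE 0.13, adjusted p = 4.46e-05, from edgeR's quasi-likelihood test), and -1.17 without MHC CRE Only 1-3. MHC CRE Only 2-3 also stood apart: 18 transcripts of lung and airway epithelium summed to 1384 CPM in it, against 125 to 218 CPM in the other Cre-only libraries and 110 to 204 CPM in deletion hearts. Named calls that were lost without these 2 libraries are given both ways, and genes named as called after leaving them out were picked with their values known. Transcripts of Y-linked genes summed to 69.9 to 96.3 CPM in deletion hearts and 53.1 to 69.3 CPM in Cre-only hearts, and Xist reached at most 2.16 CPM. The part of these differences in the results was not tested beyond the alternatives in the closing section.

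Most of the transcriptome differed little. Of 16018 genes tested, 299 (1.87%) were called at an adjusted p under 0.05, of which 174 (1.09%) were higher and 125 (0.78%) lower in deletion hearts. The median change of the called genes was 1.31-fold, and 230 of the 299 changed by less than 1.5-fold. The 6 deletion and 6 Cre-only libraries did not overlap in 129 genes (0.805%), and 70 of those were called. Each call was refitted 12 times with 1 of the 12 libraries left out, and 97 of the 299 genes were called in every refit. Without Cre-only libraries 1-3 and 2-3 the number of calls was 209, of which 162 were among the 299. The authors' deposited table of this comparison, which tests against a minimum fold, lists 11 of 16363 genes at an adjusted p under 0.05, and all 11 were among the 299.

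**Figure D1:**
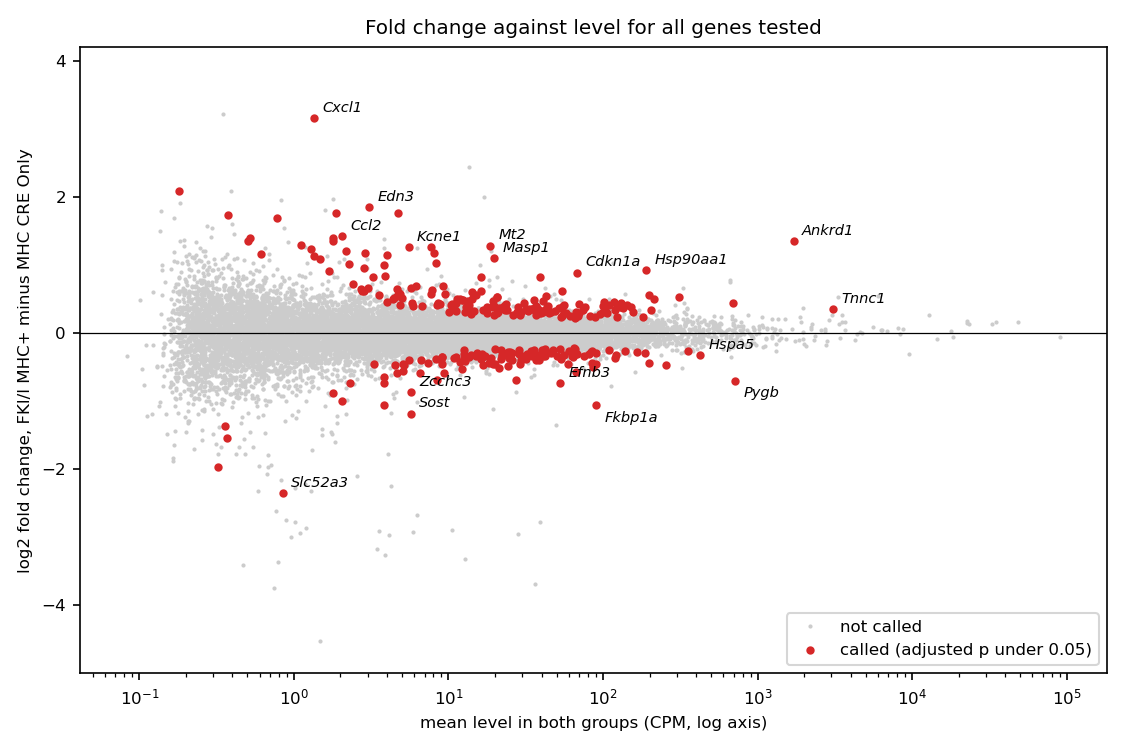
Log2 fold change (FKl/l MHC+ minus MHC CRE Only) of each of the 16018 genes tested against its mean level in the 2 groups (CPM, log axis), with called genes as filled red points. Most called genes lie near 0 on the vertical axis, Ankrd1 and Tnnc1 are called genes at high levels, and the grey points far below 0 at low to middle levels were not called.

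Some of the genes that cardiomyocytes switch on under strain rose. Ankrd1 (chromosome 19, 36111961 to 36120099, minus strand) encodes a muscle ankyrin repeat protein of the Z-disc and nucleus that responds to stretch. Its lowest, median and highest levels were 1257, 2657 and 3331 CPM in deletion hearts and 557, 1003 and 1414 CPM in Cre-only hearts. The groups overlapped only because the batches differed: batch 1 had 3121 to 3331 CPM against 1375 to 1414, and batch 2 had 1257 to 2192 CPM against 557 to 632. The change was 2.54-fold (log2 1.35, SE 0.14, adjusted p = 1.53e-05). The gene lists used from here on were chosen with earlier results of these data known, so their shares of calls are no independent test. Of 30 fetal and stress genes of cardiomyocytes 5 rose and none fell, where 1.09% of all genes rose. The list's median log2 fold change was 0.33, where that of all genes tested was -0.02. Without the 2 Cre-only libraries 5 were again called higher, although Mt2 then missed the threshold (adjusted p = 0.0673) and Hmox1, a haem-degrading enzyme, passed it (from 0.258 to 0.0413). Beside Ankrd1 these were Cdkn1a (1.85-fold), the protease inhibitor Timp1 (1.93-fold), the metallothionein Mt2 (2.44-fold) and the deubiquitinase Uchl1 (1.41-fold), with adjusted p-values from 0.00305 to 0.0325. Uchl1 is also on the list of nerve and Schwann cell markers, and its source in whole-heart RNA was not tested.

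Classical markers of the hypertrophied ventricle were not among the calls. They are named here outside the naming rule because they define this response in textbooks. Myh7, the slow myosin heavy chain, had 153 ± 60.7 CPM in deletion and 77.7 ± 38.5 CPM in Cre-only hearts (SD, n = 6 each; log2 1.03, SE 0.34, adjusted p = 0.131 by edgeR). Nppb, which encodes brain natriuretic peptide, had 397 ± 102 and 257 ± 83.9 CPM (SD, n = 6 each; log2 0.66, SE 0.31, adjusted p = 0.304 by edgeR). Nppa and Acta1 had log2 fold changes of 0.37 and 0.76 with adjusted p of 0.46 and 0.498. All 4 were positive. None passed the threshold after adjustment over all genes tested, which does not show that they were unchanged.

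**Figure D2:**
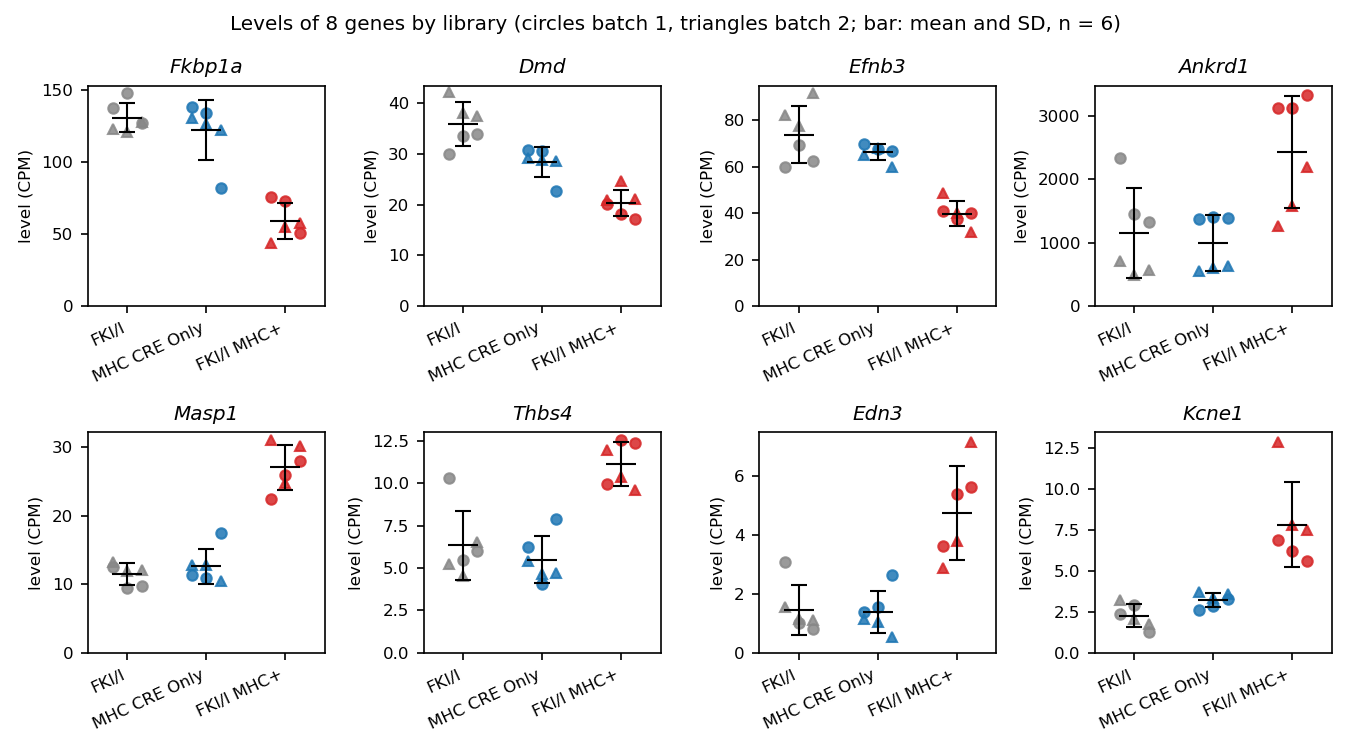
Levels (CPM) of 8 genes in each library of FKl/l, MHC CRE Only and FKl/l MHC+ (circles batch 1, triangles batch 2, bar and whiskers mean and SD, n = 6). Fkbp1a, Dmd and Efnb3 are lowest and Masp1, Thbs4, Edn3 and Kcne1 highest in the deletion group, while the Ankrd1 levels split by batch in every group.

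Masp1 had the smallest p-value of the comparison. The gene (chromosome 16, 23449417 to 23520815, minus strand) encodes a protease that activates complement through lectins. It had 22.4, 26.9 and 31.1 CPM in deletion hearts and 10.5, 12.1 and 17.5 CPM in Cre-only hearts (lowest, median, highest). All deletion libraries lay above all Cre-only libraries, of which 1-3 was the highest. The change was 2.14-fold (log2 1.09, SE 0.11, adjusted p = 6.74e-07). Fzd2, a receptor for Wnt ligands, had 18.2, 20.3 and 25.6 CPM against 8.28, 12.4 and 15.0 CPM, again without overlap, and rose 1.76-fold (SE of log2 0.11, adjusted p = 6.76e-05).

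Thbs4, a matricellular thrombospondin, had 9.64, 11.2 and 12.6 CPM in deletion and 4.08, 5.07 and 7.91 CPM in Cre-only hearts. The groups did not overlap, and it rose 2.04-fold (adjusted p = 0.000225). Edn3 (chromosome 2, 174760619 to 174784042), a peptide ligand of endothelin receptors, had 2.89, 4.6 and 7.16 CPM against 0.541, 1.27 and 2.63 CPM and rose 3.59-fold (log2 1.84, SE 0.31, adjusted p = 0.00232). Dok5, an adaptor of receptor tyrosine kinases, rose 2.45-fold from a low level, with 1.27 to 2.27 CPM against 0.464 to 0.933. The cadherin Cdh22 rose 2.2-fold (adjusted p = 0.0126), and its Cre-only range of 1.44 to 4.85 CPM reached into the deletion range of 4.19 to 6.7 CPM. Efnb3, a membrane ligand of Eph receptors, moved the other way: 31.8, 40.1 and 48.6 CPM in deletion hearts against 59.7, 67.3 and 69.6 CPM. The groups stood apart, and it fell 1.66-fold (log2 -0.74, SE 0.10, adjusted p = 0.000227).

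Some inflammatory chemokines rose, with their highest levels in single deletion libraries. Ccl2 and Ccl7, neighbours on chromosome 11 that both attract monocytes, had 1.18 to 5.43 and 1.5 to 5.85 CPM in deletion hearts against 0.587 to 1.55 and 0.467 to 1.54 CPM. They rose 2.69-fold and 3.39-fold (adjusted p = 0.00512 and 0.0177), and in both genes the libraries FKl/l MHC+ 2-2 and 2-3 were highest. Cxcl1, which attracts neutrophils, had 5.61 and 7.92 CPM in those same libraries and 0.194 to 0.433 CPM in the other 4, against 0.117 to 0.274 CPM in Cre-only hearts. Its fitted change of 8.9-fold (log2 3.15, SE 0.71, adjusted p = 0.0258) therefore rests on 2 libraries, and the deletion median was 0.4 CPM. The acute-phase inhibitor Serpina3n rose 2.25-fold (adjusted p = 0.0281) but was lost in 6 of the 12 refits, and its highest level, 24.8 CPM, was in FKl/l MHC+ 1-3. Without Cre-only 1-3 and 2-3, Ccl7, Cxcl1 and Serpina3n missed the threshold (adjusted p = 0.0889, 0.111 and 0.093) and Ccl2 held (0.0331). Of 4 neutrophil markers tested none was called, although all 4 were positive with a median of 1.18. The full list of 10 summed to 2.14 to 7.02 CPM in deletion and 1.31 to 2.47 CPM in Cre-only hearts, highest in the same 2 deletion libraries.

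Electrical genes changed in few members. Kcne1 encodes the small subunit that slows the potassium channel KCNQ1. It had 5.61, 7.21 and 12.9 CPM in deletion and 2.62, 3.31 and 3.68 CPM in Cre-only hearts. No libraries overlapped, FKl/l MHC+ 2-1 was the highest, and Kcne1 rose 2.4-fold (log2 1.26, SE 0.25, adjusted p = 0.00989). Of 32 sodium and potassium channels and connexins tested none fell, and the list's median was -0.10. Of the same list Kcnip2, a subunit of the transient outward potassium channel, had 132 ± 7.74 and 165 ± 21.9 CPM (SD, n = 6 each) with an adjusted p of 0.0545 by edgeR. Cntn2, a cell-adhesion protein and marker of Purkinje fibres, rose 1.45-fold (21.5 to 26.0 against 14.7 to 19.3 CPM, adjusted p = 0.000348). Cntn2 and Kcne1 were the 2 of 11 tested markers of the conduction system that rose, where 1.09% of all genes rose, and both calls held without the 2 Cre-only libraries.

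None of 32 genes of calcium release, uptake and extrusion was called, although FKBP12 binds the ryanodine receptor. The list's median log2 fold change was -0.06, and its members ran from -0.31 to 0.33. Ryr2, the cardiac ryanodine receptor, had 611 ± 124 CPM in deletion and 632 ± 39.8 CPM in Cre-only hearts (SD, n = 6 each; log2 -0.07, SE 0.08, adjusted p = 0.72 by edgeR). The joint value hides opposite signs: Ryr2 was at -0.34 in batch 1 and 0.20 in batch 2 (adjusted p of the difference 0.0208). Pln, which restrains the calcium pump, was at -0.37 and 0.19 (0.0274). A difference between batches was called in 8 of the 32 genes, where 3.07% of all genes had one, and all 8 were negative in batch 1 and positive in batch 2. This was not particular to calcium genes. It was called in 5 of 20 intercalated disc genes, all with these signs. In branched-chain amino acid breakdown it was 6 of 26, 5 of them with these signs. It was called in 0 of 72 oxidative phosphorylation subunits and 0 of 27 genes of glucose use. Without Cre-only 1-3 and 2-3 edgeR called no gene for a difference between batches. Atp2a2, the calcium pump of the sarcoplasmic reticulum, had a log2 fold change of -0.31 (SE 0.12, adjusted p = 0.199). The smallest p-values of the list belonged to Stim1, a sensor of calcium stores, and Trdn, which anchors calsequestrin (log2 -0.25 and 0.33, adjusted p = 0.085 and 0.105).

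Among 14 tested FK506-binding proteins 2 fell and none rose, where 0.78% of all genes fell. One of them was Fkbp1a, the deleted gene itself. The second beside Fkbp1a was Fkbp10, a collagen chaperone of the endoplasmic reticulum, with 20.7, 24.1 and 27.7 CPM in deletion and 29.6, 33.9 and 35.4 CPM in Cre-only hearts. The groups did not overlap, and it fell 1.38-fold (log2 -0.46, SE 0.08, adjusted p = 0.00232). FKl/l hearts had 22.8, 24.6 and 30.8 CPM of Fkbp10, in the range of the deletion group, and the fold change against them was -0.09 on the log2 scale (adjusted p = 0.621). Fkbp1b was low, with medians of 0.313 CPM in deletion and 0.53 CPM in Cre-only hearts (log2 -0.47, SE 0.35, adjusted p = 0.558).

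Genes of the contractile apparatus rose in small numbers. Tnnc1, cardiac troponin C, had 2799, 3660 and 3900 CPM in deletion and 2392, 2664 and 3196 CPM in Cre-only hearts, with overlap. It rose 1.27-fold (adjusted p = 0.0268), as did the Z-disc protein Nexn (1.45-fold, adjusted p = 0.0277). They were the 2 called of 30 sarcomere genes, where 1.87% of all genes were called. The list's median was 0.06, and neither gene held without the 2 Cre-only libraries (adjusted p = 0.11 and 0.0955). Of 12 tested genes of fast skeletal muscle 3 rose, where 1.09% of all genes did: the myosin light chain Mylpf (2.19-fold), the myosin-binding protein Mybpc2 (1.77-fold) and the calcium buffer Casq1 (1.47-fold). Mylpf had 1.12 to 2.82 CPM in deletion, 0.671 to 1.01 CPM in Cre-only and 0.244 to 0.575 CPM in FKl/l hearts, so the Cre-only level lay between the others. Without the 2 Cre-only libraries none of the 3 was called (adjusted p = 0.0669, 0.0562 and 0.0773), while the list's median went from 0.32 to 0.46. Of the abundant genes Adprhl1, a protein of the cardiac myofibril, and Kif5b, a motor of microtubules, also rose, by 1.36-fold and 1.41-fold (adjusted p = 0.0401 and 0.00206). Adprhl1 was lost without the 2 Cre-only libraries (0.0871).

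Dystrophin was the main structural gene that fell. Dmd (chromosome X, 82948870 to 85206141, plus strand) encodes the protein that ties the cytoskeleton to the sarcolemma. It had 17.2, 20.5 and 24.7 CPM in deletion and 22.7, 29.0 and 30.9 CPM in Cre-only hearts. Overlap came from the library labelled MHC CRE Only 1-3 alone, which had 22.7 CPM where the other 5 had at least 28.7. The fall was 1.41-fold (log2 -0.49, SE 0.08, adjusted p = 0.000511). No other of 16 tested members of the dystrophin complex was called, and the list's median was -0.03. Of 20 genes of the intercalated disc 1 fell and 1 rose, where 0.78% of all genes fell and 1.09% rose. Ctnna3, an α-catenin, fell 1.37-fold (adjusted p = 0.00701) and Ank3, an ankyrin, rose 1.22-fold (adjusted p = 0.0102). Ppp2r3a, a regulatory subunit of protein phosphatase 2A, fell 1.36-fold with no overlap (158 to 176 against 202 to 262 CPM, adjusted p = 0.00191).

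Genes of protein folding in the endoplasmic reticulum were lower in deletion hearts. Of 23 tested genes of the unfolded protein response and of folding in that compartment 7 fell and none rose, where 0.78% of all genes fell. The list's median was -0.15, and 22 of its members had a negative fold change. Manf, a secreted factor released on loss of calcium from this compartment, had 42.2, 55.0 and 67.4 CPM in deletion and 59.7, 83.1 and 91.2 CPM in Cre-only hearts. Only Cre-only 1-3 (59.7 CPM) and deletion 1-1 (67.4 CPM) overlapped, and Manf fell 1.48-fold (log2 -0.57, SE 0.10, adjusted p = 0.00187). Hspa5, the chaperone BiP that holds the stress sensors inactive, had 298, 392 and 440 CPM against 446, 468 and 499 CPM. Its groups did not overlap, and it fell 1.26-fold (log2 -0.33, SE 0.09, adjusted p = 0.0388).

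The other 5 were Hyou1, a large chaperone of the same compartment (1.27-fold lower), Syvn1, a ubiquitin ligase for misfolded proteins (1.29-fold), Creld2 and Pdia6, which act on disulfide bonds (1.24-fold and 1.18-fold), and Xbp1, the transcription factor spliced by IRE1 (1.21-fold, adjusted p = 0.0441, named after its values were seen). Manf, Hyou1 and Syvn1 were called in all 12 refits that left out a library, and the other 4 were lost in 7 to 9 of them. Without the 2 Cre-only libraries 5 of the list were called lower, with Pdia6 and Hspa5 at adjusted p of 0.0909 and 0.0829. FKl/l hearts had 296, 395 and 504 CPM of Hspa5 and 51.6, 59.1 and 83.3 CPM of Manf, with medians between those of the other groups and nearer to the deletion group. Against FKl/l the deletion hearts had a list median of -0.06, and for none of Manf, Hyou1, Syvn1, Creld2, Pdia6 and Hspa5 was the adjusted p under 0.235. Cre-only minus FKl/l had a median of 0.14 with adjusted p of 0.138 to 0.359 for the same 6 genes. These comparisons share libraries.

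The promoters of several of these genes hold the endoplasmic reticulum stress element, a motif read by ATF6 together with NF-Y. It was searched as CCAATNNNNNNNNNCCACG on both strands from 250 bases before to 50 after each gene's start, in RefSeq sequences of GRCm38.p6. A match was found in 37 of 27025 genes (0.137%) and in 18 of the 11502 genes tested that had a window (0.156%). Of the 23 list members 19 had a window and 8 held a match, 4 of the 5 called (Hspa5, Pdia6, Creld2 and Syvn1) and 4 of the 14 not called (Hsp90b1, Calr, Canx and Dnajc3). Xbp1 held none, and Manf and Hyou1 had no entry. The list was written from known genes of this response, so its share of matches was no test of a shared cause. The 4 windows of called genes are shown with the match in capitals, and the match of Creld2 is on the opposite strand. All 4 genes lie on the plus strand, at chr2:34771840-34772139 (Hspa5), chr12:17266339-17266638 (Pdia6), chr15:88819396-88819695 (Creld2) and chr19:6046326-6046625 (Syvn1).
Hspa5: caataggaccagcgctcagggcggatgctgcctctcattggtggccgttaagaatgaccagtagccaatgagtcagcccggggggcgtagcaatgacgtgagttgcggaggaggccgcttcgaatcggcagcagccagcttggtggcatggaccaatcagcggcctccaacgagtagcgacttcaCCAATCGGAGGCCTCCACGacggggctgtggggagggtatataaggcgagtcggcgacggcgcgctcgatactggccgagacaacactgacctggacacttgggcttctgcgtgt
Pdia6: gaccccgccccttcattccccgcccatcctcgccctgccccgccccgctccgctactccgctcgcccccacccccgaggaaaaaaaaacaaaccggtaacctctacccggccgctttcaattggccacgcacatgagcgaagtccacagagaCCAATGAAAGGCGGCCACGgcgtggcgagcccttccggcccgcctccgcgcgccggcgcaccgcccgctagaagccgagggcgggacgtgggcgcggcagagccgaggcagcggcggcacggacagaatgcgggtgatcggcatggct
Creld2: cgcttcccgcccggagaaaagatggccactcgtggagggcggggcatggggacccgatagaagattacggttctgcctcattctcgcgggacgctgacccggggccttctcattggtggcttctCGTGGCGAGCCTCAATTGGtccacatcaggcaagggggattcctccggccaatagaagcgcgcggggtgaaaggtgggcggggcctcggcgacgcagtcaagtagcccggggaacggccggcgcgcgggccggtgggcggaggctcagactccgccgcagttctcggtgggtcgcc
Syvn1: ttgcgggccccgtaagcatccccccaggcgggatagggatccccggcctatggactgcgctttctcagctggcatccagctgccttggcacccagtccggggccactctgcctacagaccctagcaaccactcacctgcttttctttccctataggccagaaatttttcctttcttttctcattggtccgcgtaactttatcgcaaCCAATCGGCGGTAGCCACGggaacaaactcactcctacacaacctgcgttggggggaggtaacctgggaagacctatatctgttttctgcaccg
The matches begin 65, 98, 126 and 44 bases before the start, in that order. A match describes the letters of the window and is not a binding site shown by these data.

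Of 22 heat shock proteins and chaperones 1 was called, where 1.87% of all genes were. Hsp90aa1, the inducible form of the chaperone HSP90, had 104, 276 and 311 CPM in deletion and 98.9, 124 and 171 CPM in Cre-only hearts. Deletion library 2-1, at 104 CPM, was far below the other 5, which had 237 CPM or more and lay above all Cre-only libraries. The rise was 1.9-fold (log2 0.92, SE 0.18, adjusted p = 0.0102) and was just missed without the 2 Cre-only libraries (adjusted p = 0.0518). The list's median was 0.19. Hspa1a and Hspa1b, near-identical copies of inducible HSP70 whose counts are uncertain, ranged from 2.83 to 91.6 and from 2.35 to 83.7 CPM within the deletion group and were not called (adjusted p = 0.223 and 0.144). None of 23 targets of the integrated stress response was called, and their median was 0.00. Chac1, which degrades glutathione, was called higher without the 2 Cre-only libraries (adjusted p from 0.363 to 0.00772).

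Cdkn1a, the cell-cycle inhibitor p21 and a target of p53, had 50.8, 94.0 and 118 CPM in deletion and 42.4, 45.8 and 56.3 CPM in Cre-only hearts. Deletion library 2-1 lay within the Cre-only range and the other 5 above it. Cdkn1a rose 1.85-fold (log2 0.89, SE 0.18, adjusted p = 0.0122). The membrane protein Perp and the death receptor Fas, both also known p53 targets, rose 1.26-fold and 1.27-fold (adjusted p = 0.0359 and 0.0363), so 3 of 24 p53 targets rose and none fell, where 1.09% of all genes rose. Leaving out the 2 Cre-only libraries gave 4, with Ephx1, an epoxide hydrolase, added (adjusted p from 0.0853 to 0.0256). The list's median was 0.06. Bax had a log2 fold change of 0.12 (adjusted p = 0.55), and Mdm2 was at -0.02 (0.95), with -0.35 in batch 1 and 0.30 in batch 2 (adjusted p of the difference 0.0317). Mt2 ranged from 10.3 to 51.8 CPM in deletion and from 8.73 to 15.8 CPM in Cre-only hearts. Together with Srxn1, which repairs peroxiredoxins, it made up the 2 calls among 26 antioxidant and metallothionein genes, where 1.87% of all genes were called. Neither held without the 2 Cre-only libraries (Srxn1 0.0588), where Hmox1 was the 1 call.

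Few metabolic genes were called. Of 72 nuclear-encoded subunits of oxidative phosphorylation none was called, with a median of 0.05 and members between -0.13 and 0.24. None of 33 genes of pyruvate dehydrogenase, the tricarboxylic acid cycle and ketone use, and none of 27 genes of glucose use, was called. Pfkp, a phosphofructokinase, missed the threshold (log2 0.30, adjusted p = 0.0501) and was called without the 2 Cre-only libraries (0.0300). A difference between batches was called in 6 of the 33 and in 4 of the 37 genes of fatty acid use. All of these were negative in batch 1 and positive in batch 2. Over all genes 3.07% had a difference. Of the genes of fatty acid use Ucp2, a carrier of the inner mitochondrial membrane, was the only call. It had 195, 233 and 281 CPM in deletion and 138, 146 and 223 CPM in Cre-only hearts, overlapping through Cre-only 1-3, and rose 1.47-fold (log2 0.56, SE 0.09, adjusted p = 0.000969). Of 26 genes of branched-chain amino acid breakdown 2 fell, where 0.78% of all genes did. These were Bckdhb and Ivd, which encode enzymes of the pathway, at 1.23-fold and 1.29-fold lower (adjusted p = 0.0405 and 0.045). Ivd was lost without the 2 Cre-only libraries (0.0901) and Bckdha, a subunit of the same enzyme complex as Bckdhb, was called lower (from 0.125 to 0.0413). Transcripts encoded by the mitochondrial genome took 31.7 ± 3.60% of counts in deletion and 30.7 ± 4.88% in Cre-only hearts (SD, n = 6 each), a difference of 1.02 percentage points with an exact 2-sided permutation p of 0.63, and of 0.155 when libraries were permuted only within batches. Within batch 1 the means were 34.95 and 35.12%. Within batch 2 they were 28.5 and 26.3%, and the groups did not overlap (28.2 to 28.7% against 25.7 to 26.8%), where 3 against 3 cannot give an exact p below 0.1.

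Matrix and growth-factor genes showed single changes in both directions. Of 44 genes of the extracellular matrix and its remodelling 3 rose, where 1.09% of all genes did. These were Thbs4, Timp1 and the collagen gene Col8a1 (1.51-fold, adjusted p = 0.0236), while the list's median was -0.12. Col8a1 was lost without the 2 Cre-only libraries (0.0734). The fibrillar collagens Col1a1 and Col3a1 had log2 fold changes of -0.19 and -0.22 with adjusted p of 0.63 and 0.59. Of 42 genes of TGF-beta, activin and BMP signalling 2 rose and 2 fell, where 1.09% of all genes rose and 0.78% fell. Tgfb2, a ligand, had 6.99, 9.73 and 10.7 CPM against 5.35, 6.34 and 7.5 CPM and rose 1.48-fold (adjusted p = 0.0074), and Fstl3, which binds activins, rose 1.61-fold (adjusted p = 0.00512). Ltbp4, which stores latent TGF-beta in the matrix, had 178, 218 and 244 CPM against 267, 296 and 342 CPM without overlap and fell 1.39-fold (adjusted p = 0.00381). Smad3, a transducer of the pathway, fell 1.24-fold (adjusted p = 0.0134). Without the 2 Cre-only libraries these 4 held.

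Other signalling lists held at most 1 call each, where 1.87% of all genes were called. Grk5, a kinase that desensitises adrenergic receptors, had 52.3, 64.7 and 76.0 CPM in deletion and 34.6, 41.7 and 55.1 CPM in Cre-only hearts and rose 1.53-fold (log2 0.61, SE 0.10, adjusted p = 0.00143), the only call of 24 genes of adrenergic, angiotensin and endothelin signalling. Npr1, a receptor of natriuretic peptides, was called lower as well without the 2 Cre-only libraries (from 0.0874 to 0.0239). Eif4ebp2, a translation inhibitor controlled by mTOR, fell 1.18-fold (adjusted p = 0.0277) as the only call of 22 genes of the mTOR complexes and their regulators. The call was lost without the 2 Cre-only libraries (0.103). None of 16 genes of calcineurin, NFAT and MEF2 was called, with a median of -0.10. Ccnd2, a cyclin, rose 1.3-fold (adjusted p = 0.0293, 1 of 28 cell cycle genes), and the clock-controlled factor Hlf fell 1.45-fold (adjusted p = 0.0155, 1 of 17 clock genes). Without the 2 Cre-only libraries both missed the threshold (0.0901 and 0.0604), and Cry1, a repressor of the clock, was called lower (0.0413). The clock list's median was -0.14 and turned to 0.14 without the 2 Cre-only libraries. None of 25 genes of the Notch pathway, 32 interferon response genes, 19 angiogenic ligands or 18 cardiac transcription factors was called. Immediate early genes, which respond within minutes to handling, had a median of 0.35 over 25 genes with none called, and Fos ranged from 1.19 to 20.996 CPM in deletion and from 1.02 to 22.5 CPM in Cre-only hearts.

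Few markers of other heart cells passed the test, where 1.87% of all genes did. Endothelial markers, of which 18 were tested, had a median of -0.18 and summed to 989 to 1266 CPM in deletion and 1164 to 1344 CPM in Cre-only hearts. Robo4, a receptor of endothelial cells, was the 1 call (1.26-fold lower, adjusted p = 0.00791), and without the 2 Cre-only libraries Pecam1, Tek and Tie1 were called lower too (adjusted p = 0.0481, 0.0141 and 0.0453). Pdgfrb, a receptor of pericytes, fell 1.26-fold (adjusted p = 0.00183) as the only call of 14 markers of smooth muscle and pericytes. Of 19 markers of macrophages and monocytes Mrc1, a mannose receptor, rose 1.25-fold (adjusted p = 0.0464), the list's median was 0.20, and their sum was 234 to 311 CPM against 216 to 283 CPM. Mrc1 was lost in 8 of the 12 refits and without the 2 Cre-only libraries (0.0832). Of 12 nerve and Schwann cell markers 1 was called, Uchl1, which was counted above among the stress genes. The median of the nerve list was -0.20, and 8 of its members were negative. None of 10 cardiomyocyte, 12 atrial, 18 fibroblast, 12 lymphocyte, 14 adipocyte, 12 erythroid and platelet, 12 lung or 9 mesothelial markers was called, although some of these lists lay far from 0. The 12 lung markers tested were all negative with a median of -2.92, which was -0.58 without the 2 Cre-only libraries, and mesothelial markers had -0.68 and -0.40. Adipocyte markers, of which 12 of 14 were negative, had -0.40 and -0.18, and summed to 281 to 785 CPM in deletion and 342 to 956 CPM in Cre-only hearts, highest in Cre-only 2-3. All 12 erythroid and platelet markers were positive with a median of 0.17. The part of these cells in the results above was not tested.

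**Figure D3:**
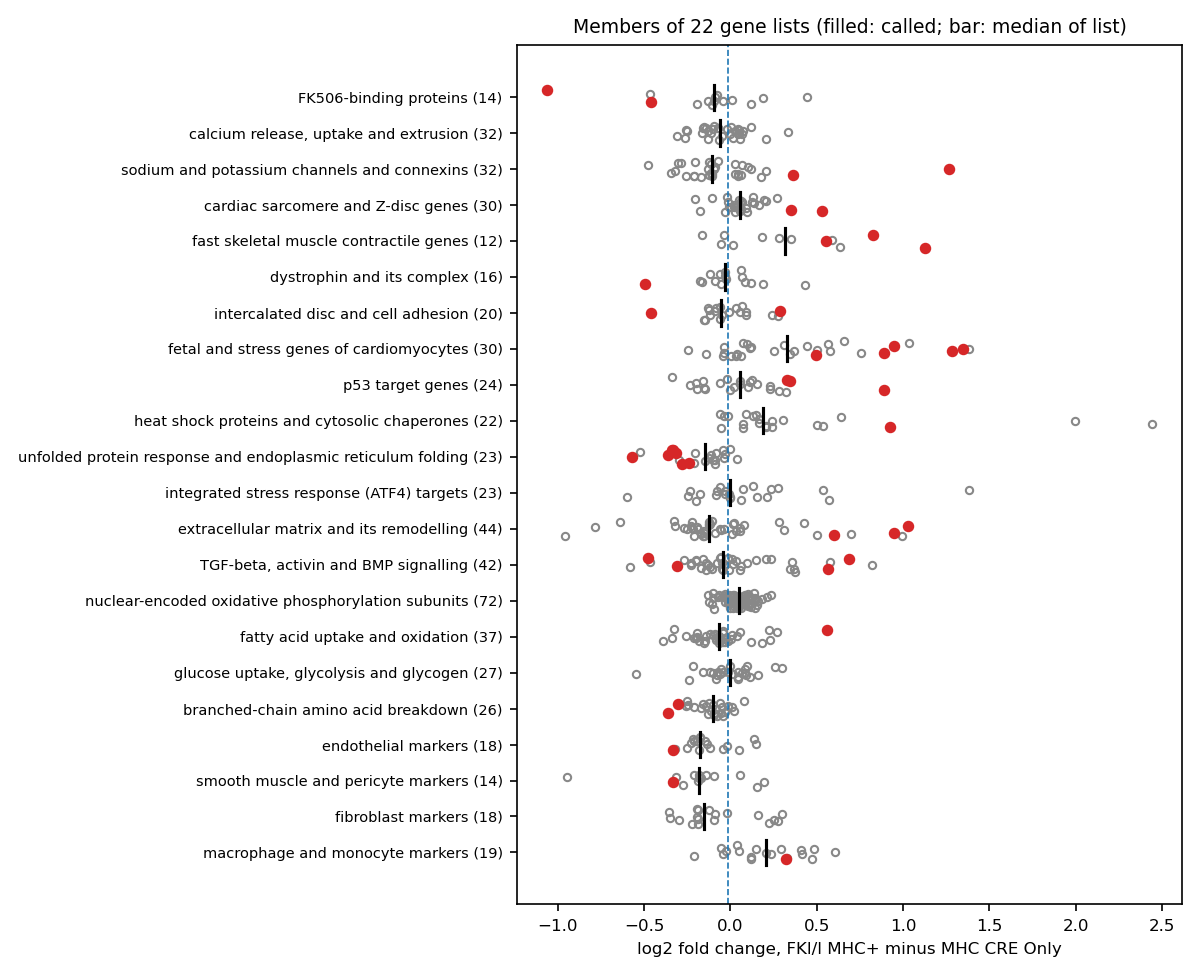
Log2 fold change (FKl/l MHC+ minus MHC CRE Only) of the tested members of 22 gene lists, with called members as filled points, list medians as black bars and the median of all genes (-0.02) as a dashed line. The number of members tested stands beside each name, and the row of the unfolded protein response is the one with 7 called members, all below 0.

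Genes beside Fkbp1a on chromosome 2 were called more often than the rest. Within 1 Mb of Fkbp1a, itself left out, 4 of 25 genes tested were called (16%), and within 2 Mb 5 of 49 (10.2%). Within 20 Mb the count was 10 of 295 (3.39%) and on the rest of the chromosome 18 of 917 (1.96%), close to the 1.87% of all genes. No test was made of these shares. The group MHC CRE Only has no floxed allele, whereas FKl/l and FKl/l MHC+ share it, so the flanks of the gene can be set beside those of FKl/l.

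Slc52a3 (chromosome 2, 151996511 to 152009258), a riboflavin transporter 435 kb from Fkbp1a, had 0.113, 0.294 and 0.443 CPM in deletion hearts and 0.992, 1.39 and 1.84 CPM in Cre-only hearts. FKl/l hearts had 0.138, 0.306 and 0.446 CPM, the same range as the deletion group. It was 5.1-fold lower than in Cre-only hearts (log2 -2.35, SE 0.34, adjusted p = 0.000241), while against FKl/l the log2 fold change was -0.11 (adjusted p = 0.911). Pygb, brain glycogen phosphorylase, which lies 711 kb on the other side, had 459, 543 and 648 CPM in deletion, 816, 883 and 943 CPM in Cre-only and 410, 546 and 725 CPM in FKl/l hearts. It fell 1.62-fold against Cre-only (log2 -0.70, SE 0.09, adjusted p = 4.46e-05), and against FKl/l the log2 fold change was 0.00 (adjusted p = 0.996). Zcchc3, a zinc-finger protein, had 3.4 to 4.63 CPM, 5.31 to 9.37 CPM and 3.49 to 5.3 CPM in the same order and fell 1.82-fold (adjusted p = 0.000225). In these 3 genes the Cre-only group stood apart from both floxed groups. In the library labelled MHC CRE Only 1-3 Pygb was at 855 CPM and Slc52a3 at 0.992 CPM, above all libraries of both floxed groups.

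Only 7 genes (0.0437%) were called in Cre-only against FKl/l hearts, and 6 of them lay within 2 Mb of Fkbp1a. Beside Slc52a3, Pygb and Zcchc3 these were Asxl1, a chromatin regulator that was higher in Cre-only hearts (46.7 ± 4.22 against 35.01 ± 9.0 CPM, SD, n = 6 each), and Rem1, a small GTPase that was lower (4.14 ± 0.324 against 6.35 ± 0.691 CPM), both named after their values were seen, and a gene with a predicted name. The count within 2 Mb was 6 in each of 4 further fits, which called 6 to 8 genes in all. Srxn1, 544 kb from Fkbp1a, differed from this pattern: 22.4, 27.0 and 28.7 CPM in deletion, 18.4, 20.4 and 22.96 CPM in Cre-only and 16.8, 19.9 and 21.9 CPM in FKl/l hearts, with a rise of 1.27-fold against Cre-only (adjusted p = 0.0371) and a log2 fold change of 0.40 against FKl/l (adjusted p = 0.0121). In the FKl/l comparison 274 genes (1.71%) were called, 9 of them within 20 Mb.

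**Figure D4:**
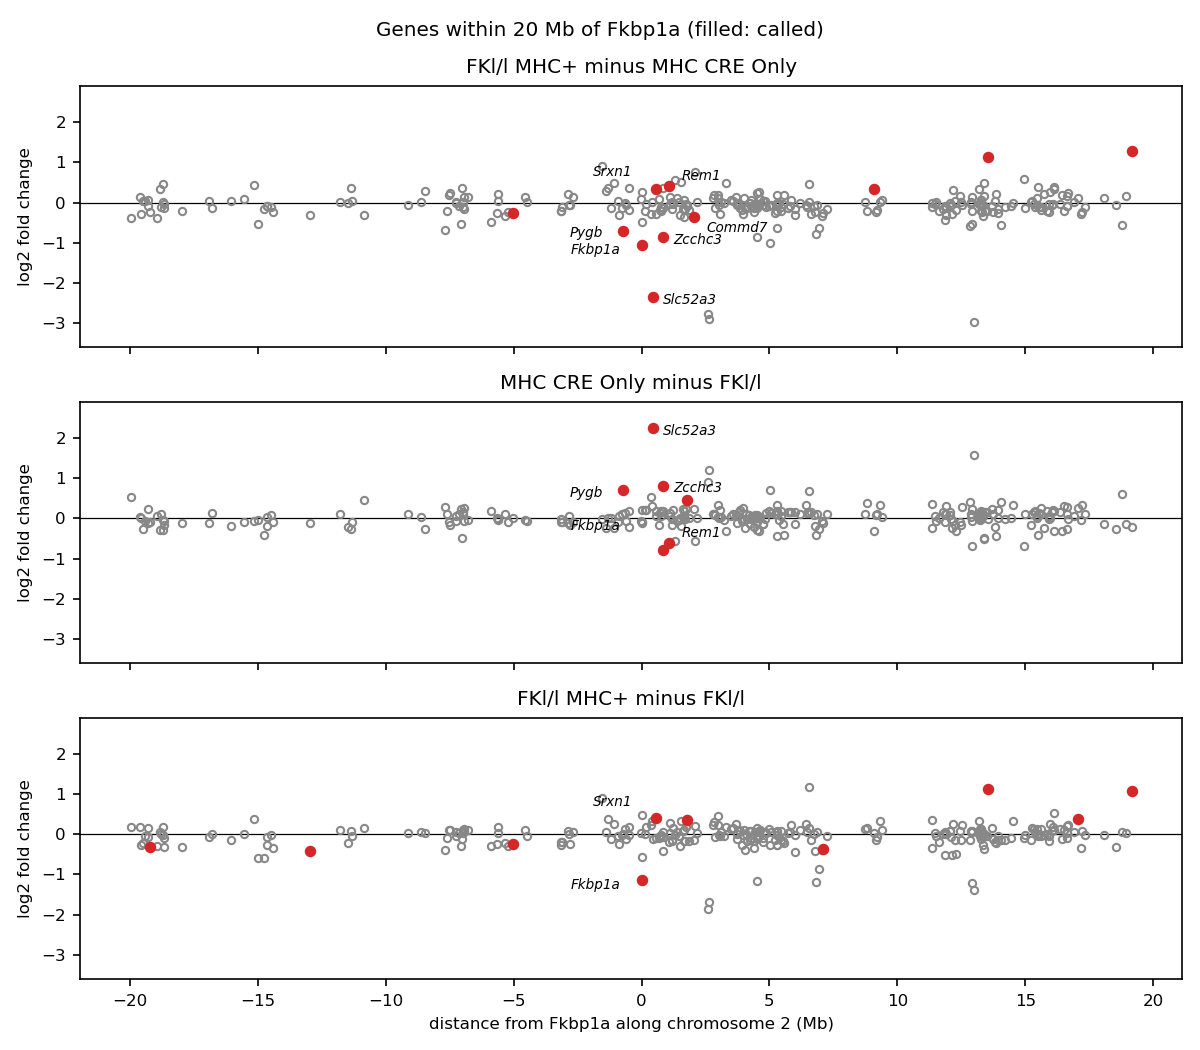
Log2 fold change of each tested gene within 20 Mb of Fkbp1a against its distance along chromosome 2 (Mb), for the 3 contrasts of deletion, Cre-only and FKl/l hearts, with called genes as filled points. Slc52a3, Pygb and Zcchc3 are called in the 2 panels that contain Cre-only hearts and not in deletion minus FKl/l, where Fkbp1a is still called.

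Called genes differed in base composition by direction. The median GC content of the transcripts was 46.7% for genes called higher, 53.8% for genes called lower and 49.6% for all genes tested. Split by batch, the median log2 fold change ran from 0.15 in the eighth of genes with the lowest GC content to -0.11 in the highest eighth in batch 2, and stayed between -0.05 and -0.03 in batch 1. In single libraries, the level of genes of high GC content minus that of low GC content was 0.13 to 0.24 on the log2 scale in batch 2 of Cre-only hearts and -0.25 to -0.01 in batch 2 of deletion hearts. In batch 1 it was -0.02 to 0.05 in both groups. A fit with each library's trend on GC content as an offset, chosen after seeing the data, called 241 genes (1.5%), of which 194 were among the 299. Of the 73 called genes that the naming rule took 9 were lost in that fit: Bckdhb and Ivd (adjusted p = 0.0643 and 0.0644), Creld2 (0.0667), Fas (0.0715), Ccnd2 (0.0534), Eif4ebp2 (0.0594), Mrc1 (0.0593), the Wnt inhibitor Sost (0.0643) and the carnitine acetyltransferase Crat (0.0814). Sost and Crat had fallen 2.27-fold and 1.2-fold and were lost without the 2 Cre-only libraries too (0.184 and 0.0518). Xbp1 was lost as well (0.0885), while Ankrd1, Masp1, Dmd, Efnb3, Kcne1, Manf and Hspa5 held. Median GC content of the calls was then 51.4% for higher and 49.6% for lower genes.

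**Figure D5:**
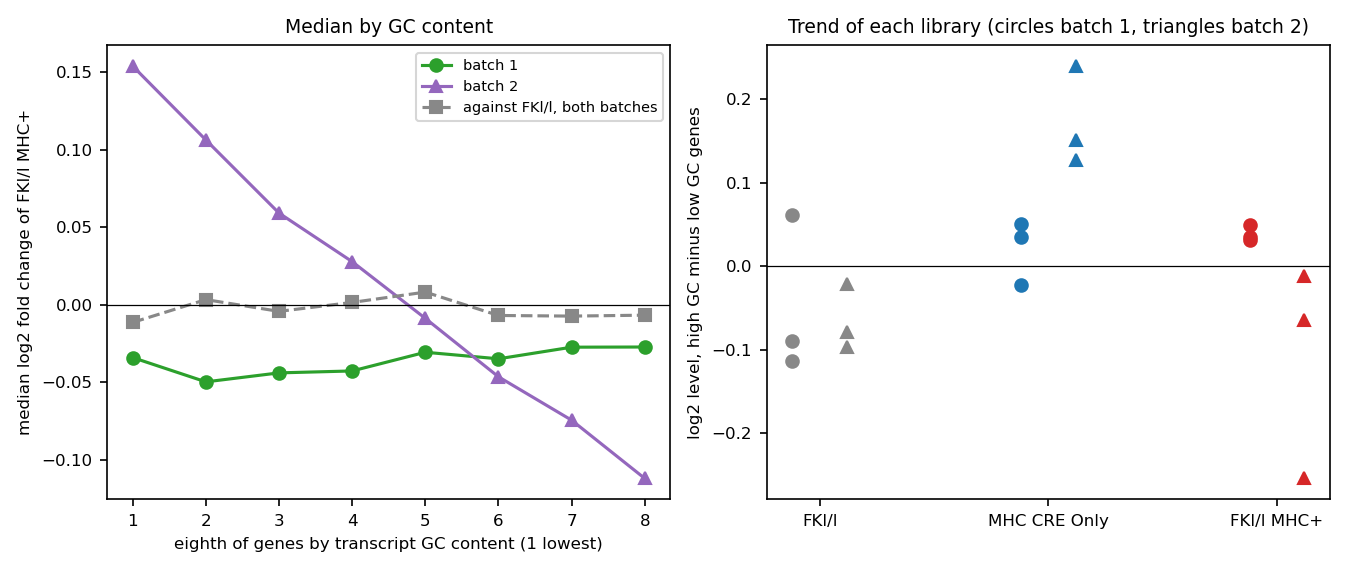
Left, median log2 fold change of FKl/l MHC+ in eighths of genes by transcript GC content, against MHC CRE Only in batch 1 and batch 2 and against FKl/l in both batches. Right, log2 level of high minus low GC genes in each library, where the 3 batch 2 libraries of MHC CRE Only are highest (0.13 to 0.24) and those of FKl/l MHC+ are all below 0.

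The batches agreed in sign for all 299 calls, which the joint fit favours by construction. Within batch 1 the log2 fold changes of Ankrd1, Masp1 and Dmd were 1.2, 0.94 and -0.60, and within batch 2 they were 1.48, 1.25 and -0.38. A difference between batches was called in 491 genes (3.07%) of all tested and in 6 of the 299. Fstl4, a secreted follistatin-like protein, was among these 6 and had 10.99 to 19.9 CPM in batch 1 and 4.7 to 8.18 CPM in batch 2 of deletion hearts, against 3.19 to 5.48 CPM in Cre-only hearts. Its log2 fold change was 1.26 (SE 0.21, adjusted p = 0.00201), at 1.74 in batch 1 and 0.65 in batch 2 (adjusted p of the difference 0.0455). Ivd had log2 fold changes of -0.64 and -0.12 in the same order (adjusted p of the difference 0.0426).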

How the data were processed

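RNA of whole mouse hearts was sequenced. The authors deposited whole-number read counts per gene for 24 libraries, not normalized, and tables of their own comparisons, which per the file headers hold log2 fold changes, mean log2 levels, a test score and a p-value with its adjusted form. Per the submitters' processing notes, bcl2fastq 2.17, FastQC, Trim Galore, STAR, RSEM and build mm10 were used. The annotation, the strand setting and whether RSEM estimates were rounded are not given in these sources, so genes that overlap others or have near-identical copies are uncertain. Rows named by a transcript (3660, holding 1.22 to 2.86% of the counts of the 12 libraries) were left out. Libraries of a genotype differed beyond counting noise (chi-square per degree of freedom 9.34 to 148).

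The deposited counts of all 24 libraries entered 1 fit with genotype and batch (edgeR 4.0.16, limma 3.58.1, R 4.3.3; filterByExpr, trimmed mean of M values, robust quasi-likelihood F-test, 2-sided). The 4 genotypes, FKl/l MCK+ among them, thus shared the filter, the scaling and 1 estimate of the spread. A gene was called where the Benjamini-Hochberg adjusted p over the 16018 genes tested was under 0.05, and adjusted p-values come from this test. SE is the standard error of the log2 fold change. The share of mitochondrial counts was tested with an exact permutation test (scipy 1.17.1), also with libraries permuted only within batches. The fit was tested on simulated counts before use.

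The comparison and the 47 gene lists (1064 entries, 1026 tested) were chosen with earlier results of these data known. The naming rule took Fkbp1a and Fkbp1b, the 12 called genes with the highest and the 12 with the lowest fold change at a mean of at least 1 CPM, the 8 of each direction with the smallest p, the 5 of each direction with the highest level, and up to 5 called members of each list (or the 2 with the smallest p). Predicted names, Xist and Y-linked genes were passed over. A called gene that the rule took is not reported here. Other list members are named for textbook roles. Gene positions were taken from GENCODE M21 (GRCm38), and promoters come from RefSeq (GRCm38.p6). Replicate numbers were not used to pair the libraries in the main fit. Of 6 same-numbered pairs 2 had a correlation of deviations above 0.1 (range -0.16 to 0.14). With 3 libraries per group and batch this check cannot exclude that same-numbered libraries belong together.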

Additional observations from a re-analysis of the deposited data

Results flagged for a closer look

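In each gene named and called, and in each summed cell-marker level, the highest and lowest library of each group of 6 was compared with the rest of its group. A gap to the nearest library above Dixon's 95% limit, as a share of the group's range, marked 18 of 172 groups, and chance marks about 1 in 20. In Cre-only hearts 6 of these were the library labelled MHC CRE Only 1-3: Fkbp1a (81.8 CPM), Dmd (22.7), Eif4ebp2 (133), Hlf (20.4), Masp1 (17.5) and Mt2 (15.8) stood apart there from the other 5 libraries. Fkbp1a and Dmd were low in it and the other 4 genes high.

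Cre-only 1-2 was highest for Ccl7 (1.54 CPM) and Cdh22 (4.85 CPM), and Cre-only 2-2 was lowest for Fkbp10 (29.6 CPM). In deletion hearts library 1-1 was high for Creld2 (13.8 CPM), 1-3 for Dok5 (2.27), 2-3 for Fzd2 (25.6) and 2-1 for Kcne1 (12.9), and 2-1 was low for Hsp90aa1 (104 CPM). Lymphocyte markers summed to 34.6 CPM in deletion library 1-2. Lung and airway markers summed to 204 CPM in deletion library 2-1 and to 1384 CPM in Cre-only 2-3, and nerve markers to 63.8 CPM in Cre-only 2-3.

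The effect of the deletion differed between batches by the interaction test in 2 called genes with a place in the naming rule. For Fstl4 the log2 fold change of batch 2 minus that of batch 1 was -1.09, and for Ivd it was 0.51.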

How the results depend on the processing

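Of the 299 calls 174 were higher and 125 lower. A fit of only the 12 libraries of the comparison tested 15244 genes and gave 241 calls (144 higher, 97 lower). Of these, 186 were among the 299. DESeq2's Wald test gave 571 (346 higher, 225 lower), a fit without the batch term 42 (25 and 17), a term for the Y-linked level beside batch 51 (27 and 24), and a test against a fold of 1.2 17 (11 and 6). The Y-linked sums of deletion and Cre-only hearts did not overlap, so a fit with that term cannot cleanly separate it from the genotype. Batch 1 alone gave 78 (54 and 24) and batch 2 alone 915 (547 and 368), and with the GC content offset these were 127 (89 and 38) and 511 (320 and 191). Without Cre-only 1-3 and 2-3 there were 209, of which 114 were higher. Leaving out single libraries gave 135 to 482 calls, 78 to 275 higher and 46 to 207 lower. The calls moved by over 1.5 times without FKl/l MHC+ 1-2 (135), 1-3 (138), 2-3 (137) or 2-1 (482) and without MHC CRE Only 2-1 (163) or 2-2 (186). The same library numbers as a replicate block in place of batch gave 215 calls (125 higher).

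The genes differing between batches numbered 491, with 245 under DESeq2 size factors and 183 with the GC offset. Without Cre-only 1-3 and 2-3 edgeR called 0, with 1922 at an unadjusted p under 0.05 against 3031 in all libraries. Leaving out single libraries gave 32 (without FKl/l MHC+ 2-2) to 943 (without FKl/l MHC+ 2-1), with 933 without MHC CRE Only 1-1, 56 without 1-3, 77 without 2-3, 130 without 2-1 and 223 without 2-2, and 78, 103 and 322 without FKl/l MHC+ 1-2, 1-3 and 1-1. The difference in mitochondrial share was 1.02 percentage points, -0.16 in batch 1 and 0.00461 to 2.12 with single libraries left out. The causes of these shifts were not tested.

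Of 73 called genes that the naming rule took none changed sign under any of 42 alternatives, of which Cxcl1 and Slc52a3 were tested in 41. Picking called genes and refitting largely the same libraries favours this outcome. With the GC offset 64 were still called, with the block 60, with limma voom 68, with DESeq2 73, and without Cre-only 1-3 and 2-3 50. Other settings kept fewer of all 299 calls. The term for the Y-linked level kept 35, the fit without the batch term 42 and the test against a fold of 1.2 17. Batch 1 alone kept 41 and batch 2 alone 150. How many of the 73 held in these fits is not given here. In every fit that left out 1 of the 12 libraries 44 were called.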
